A study of Mus musculus with 6 samples.

Results

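Cfd, which encodes complement factor D, and 6 other genes of the alternative complement pathway (C3, Cfb, Cfi, Cfp, C3ar1 and C5ar1) were followed across 6 mouse liver libraries. They were picked by symbol, and all 7 were found among the 24501 genes of the deposited table. Cfd was chosen because its counts differ between the 2 groups, so the values of these 7 genes in that contrast are given as a description, without a test. The libraries came from male C57BL/6J mice, 11 weeks old, that all carried Gata4 fl/fl alleles. In the 3 mice labelled Gata4LKO, an adeno-associated virus (AAV8) carried Cre driven by Tbg, whose activity is largely limited to hepatocytes, and the 3 Control mice received an empty AAV8. Virus was injected at 8 weeks of age, all mice ate a Western Diet for 3 weeks, and all had fasted for 6 hours at collection. The series text speaks of fasted or refed mice, but the label of each mouse here gives fasting. One label places collection 7 days after injection, which does not match the ages. Each library is 1 mouse.

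The alternative pathway is the branch of complement that runs without antibody. C3 is the central protein of complement. Its fragment C3b binds factor B, the product of Cfb, and factor D, a serine protease, then cuts factor B to give the C3 convertase that makes more C3b. Properdin, the product of Cfp, stabilises that enzyme, and factor I, the product of Cfi, cuts C3b with the help of cofactors. The released peptides C3a and C5a act on the receptors encoded by C3ar1 and C5ar1. In mice, C3 and the factors B and I are made largely by hepatocytes, properdin and both receptors mostly by myeloid cells, and factor D mostly by adipocytes, for which it is also called adipsin.

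Gata4 itself counted 867, 848 and 895 normalised reads in the libraries labelled Gata4LKO, against 704, 637 and 546 in Control libraries. The count of the targeted gene was therefore not lower under its knockout label, and all directions given here depend on the labels. A count per gene does not show which part of the gene the reads came from, so loss of the part that Cre removes was not tested. The libraries held 33274223 to 37390345 reads. The 12 hepatocyte markers summed to 2645888 to 3104201 normalised reads in the libraries labelled Gata4LKO, against 3429868 to 4548601 in Control libraries. The labelled tissue's markers were thus abundant in all 6, but lower without overlap in the libraries labelled Gata4LKO. Of the 12 markers, 11 had negative log2 fold changes, with a median of -0.36. Taken singly, 6 were lower and 1 higher without overlap, beside 13.4% and 15.0% of all tested genes. DESeq2 called 5, all lower, beside 9.71% of all tested genes, taken over the 14103 of them to which it gave an adjusted p. Later shares for DESeq2 have the same base. Markers of Kupffer cells, the resident macrophages of liver, and of other macrophages were higher in the libraries labelled Gata4LKO. Their 14 genes summed to 19804, 9895 and 12746 normalised reads there, against 5867, 8458 and 3963 in Control libraries, so the groups did not overlap. In whole liver, more cells of a type and more RNA per cell cannot be told apart.

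The sequences at the start sites of 3 of the genes are shown because the levels of Cfd, C3 and C3ar1 behaved in 3 different ways. Each runs from 250 bases before to 50 bases after the start site in RefSeq on GRCm38.p6, 5′ to 3′ on the gene's strand, at chr10:79890603-79890902 (plus strand) for Cfd, chr17:57228087-57228386 (minus strand) for C3 and chr6:122856108-122856407 (minus strand) for C3ar1. Of the 7 genes, 5 matched the RefSeq promoter table, and Cfb and Cfi did not. Capitals mark matches on either strand to 3 motifs. GATAA, with TTATC as its reverse complement, is a core read by GATA factors. TTGCNNAA, whose reverse complement is TTNNGCAA, is bound by C/EBP factors. AGGTCA, with TGACCT as reverse complement, is a core site of nuclear receptors. The matches shown do not overlap.
Cfd: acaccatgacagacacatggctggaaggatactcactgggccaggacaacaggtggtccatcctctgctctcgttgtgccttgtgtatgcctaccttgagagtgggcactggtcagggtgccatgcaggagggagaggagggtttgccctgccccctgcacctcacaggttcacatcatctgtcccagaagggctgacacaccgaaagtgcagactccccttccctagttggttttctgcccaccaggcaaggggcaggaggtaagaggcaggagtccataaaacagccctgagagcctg
C3: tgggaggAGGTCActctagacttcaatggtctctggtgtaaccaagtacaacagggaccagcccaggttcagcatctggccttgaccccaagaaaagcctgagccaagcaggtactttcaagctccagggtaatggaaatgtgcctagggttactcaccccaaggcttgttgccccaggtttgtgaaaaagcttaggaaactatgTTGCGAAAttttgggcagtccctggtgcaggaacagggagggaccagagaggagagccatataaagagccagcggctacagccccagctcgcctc
C3ar1: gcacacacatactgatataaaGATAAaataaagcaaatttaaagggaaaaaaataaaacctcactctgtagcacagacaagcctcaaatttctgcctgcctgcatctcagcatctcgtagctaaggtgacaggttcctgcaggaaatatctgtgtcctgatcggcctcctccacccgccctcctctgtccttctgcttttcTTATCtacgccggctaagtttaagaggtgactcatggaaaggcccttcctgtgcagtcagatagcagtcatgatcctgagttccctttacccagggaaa
None of the 3 motifs was found in the Cfd window. In the C3 window, TTGCGAAA began at position -45 from the start site and AGGTCA at -243. The C3ar1 window held GATAA at -229 and its reverse, TTATC, at -49. Of the 32851 promoter windows of this length, 25.4% held GATAA, 10.8% TTGCNNAA and 16.3% AGGTCA, so such matches are common and are given as a description only.

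Cfd (ENSMUSG00000061780, chromosome 10, 79890853 to 79892655, plus strand, on mm10) reached 3207, 1199 and 648 normalised reads in the libraries labelled Gata4LKO, against 20.6, 51.9 and 21.5 in Control libraries. In whole reads these were 3135, 1194 and 686, against 20, 50 and 23. The groups lay far apart: the lowest library labelled Gata4LKO was more than 10 times above the highest Control library. The means were 1684 ± 1347 and 31.3 ± 17.9 (SD, n = 3 each), and the log2 fold change, on log2(value + 1), was 5.52 (SE 0.59). The ratio of the means was 53.8, and the fold change on the log2(value + 1) scale was 46.0. Among 14385 genes with a mean of at least 10, this log2 fold change stood at rank 3 from the top. Cfd also varied between the mice labelled Gata4LKO. The standard deviation of its log2 values was 1.16 in those libraries, rank 150 of 14385 from the top, and 0.73 in Control libraries. The authors' deposited table lists a log2 fold change of 5.75 (SE 0.78) for Cfd. Without Gata4LKO replicate 1, the library with the most Cfd, the log2 fold change was 4.90.

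**Figure D1:**
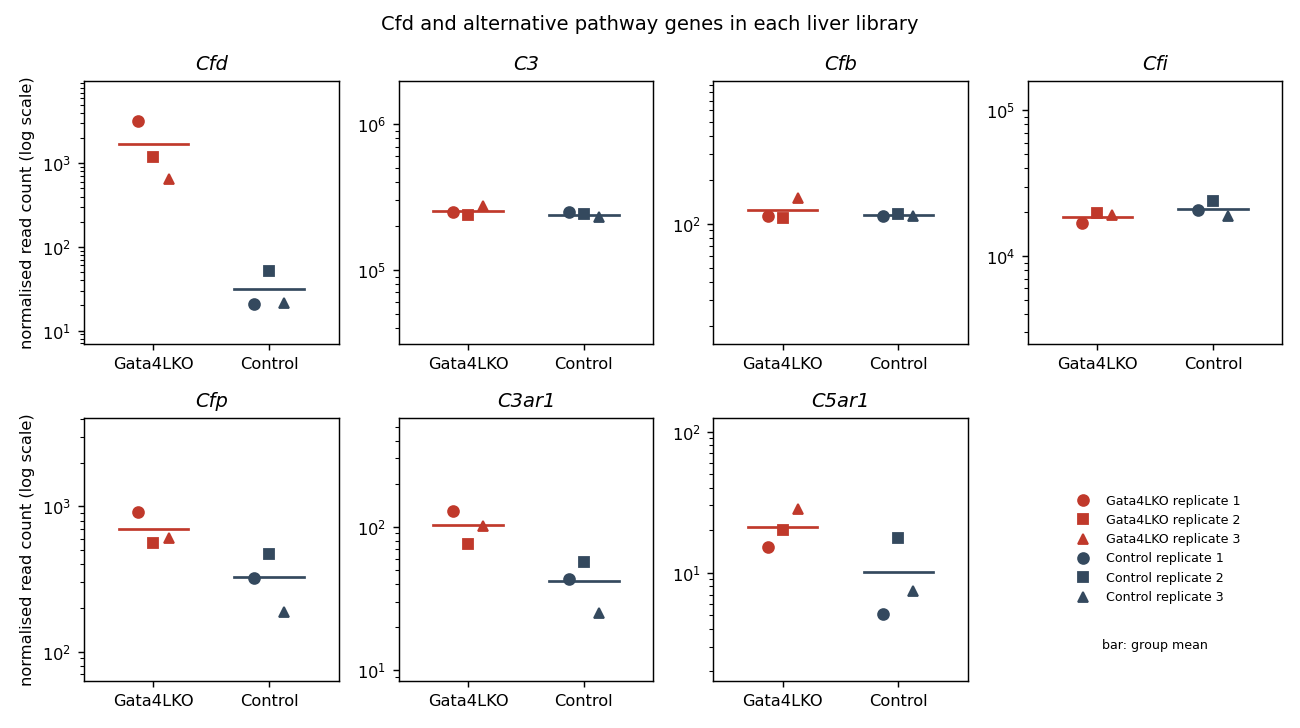
Normalised read counts (log axis) of the 7 genes in each library, the 3 libraries labelled Gata4LKO on the left and the 3 Control libraries on the right of each panel. Symbols are mice and bars are group means. Cfd lies at 648 to 3207 in the libraries labelled Gata4LKO and at 20.6 to 51.9 in Control libraries, while C3, Cfb and Cfi overlap between the groups.

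C3 and Cfb, whose products form the convertase, and Cfi, which limits it, overlapped between the groups. C3 (ENSMUSG00000024164, chromosome 17, 57203970 to 57228136, minus strand) had 250199.9, 238850.0 and 274084 normalised reads in the libraries labelled Gata4LKO, against 248453, 241617 and 229283 in Control libraries. The 2 groups overlapped, with a log2 fold change of 0.08 (SE 0.16). Cfb (ENSMUSG00000090231, chromosome 17, 34856374 to 34862518, minus strand), which encodes the direct substrate of factor D, had 113, 110.4 and 149 normalised reads, against 113, 116 and 114 in Control libraries. Apart from Gata4LKO replicate 3, the 6 values of Cfb lay within 110.4 to 116. Its log2 fold change was 0.10 (SE 0.16), and -0.04 when Gata4LKO replicate 3 was left out. The Cfb count is uncertain, because another protein-coding gene on the same strand, Gm20547, spans nearly all of it (34856412 to 34882042), and the sources used here do not say how shared reads were counted. Cfi (ENSMUSG00000058952, chromosome 3, 129835884 to 129875332, plus strand), the C3b-cutting protease, had 16777, 19757 and 19175 normalised reads, against 20759.6, 23854 and 18879 in Control libraries. Its groups overlapped as well, with a log2 fold change of -0.19 (SE 0.11).

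Cfp and the receptor genes were higher on average in the libraries labelled Gata4LKO, with log2 fold changes of 1.13 to 1.31, beside a median of 1.21 for the macrophage markers. Cfp (ENSMUSG00000001128, chromosome X, 20925454 to 20931555, minus strand) had 923, 556 and 605 normalised reads in the libraries labelled Gata4LKO, against 322, 468 and 189 in Control libraries. The groups of Cfp did not overlap, and its log2 fold change was 1.15 (SE 0.33). C3ar1 (ENSMUSG00000040552, chromosome 6, 122847138 to 122856161, minus strand), the receptor for C3a, had 129.9, 76.3 and 101 normalised reads, against 43.2, 57.1 and 25.2 in Control libraries. Its groups did not overlap either, and its log2 fold change was 1.31 (SE 0.33). C5ar1 (ENSMUSG00000049130, chromosome 7, 16246743 to 16259540, minus strand), the receptor for C5a, had 15.3, 20.1 and 28.3 normalised reads, against 5.14, 17.7 and 7.47 in Control libraries. Gata4LKO replicate 1 lay below Control replicate 2 for C5ar1, so these groups overlapped (log2 fold change 1.13, SE 0.48). C5ar1 rested on 5 to 30 reads a library, so counting error is large.

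Of the 7 genes, 3 (Cfd, Cfp and C3ar1) were higher without overlap and 0 lower without overlap, where 15.0% of all tested genes were higher and 13.4% lower without overlap. By limma, a linear model over all genes, 1 of the 7, Cfd, had a Benjamini-Hochberg adjusted p under 0.05, against 2.06% of all tested genes (1.13% higher and 0.932% lower). In the authors' deposited table, 3 of the 7 (Cfd, C3ar1 and Cfp) have an adjusted p under 0.05 and are higher, against 5.98% of its genes with an adjusted p (9.41% in either direction). It lists log2 fold changes of 1.30 for C3ar1 (SE 0.35) and 1.09 for Cfp (SE 0.30). Since this contrast was used to choose the genes, these counts are descriptions and nothing is read from them.

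**Figure D2:**
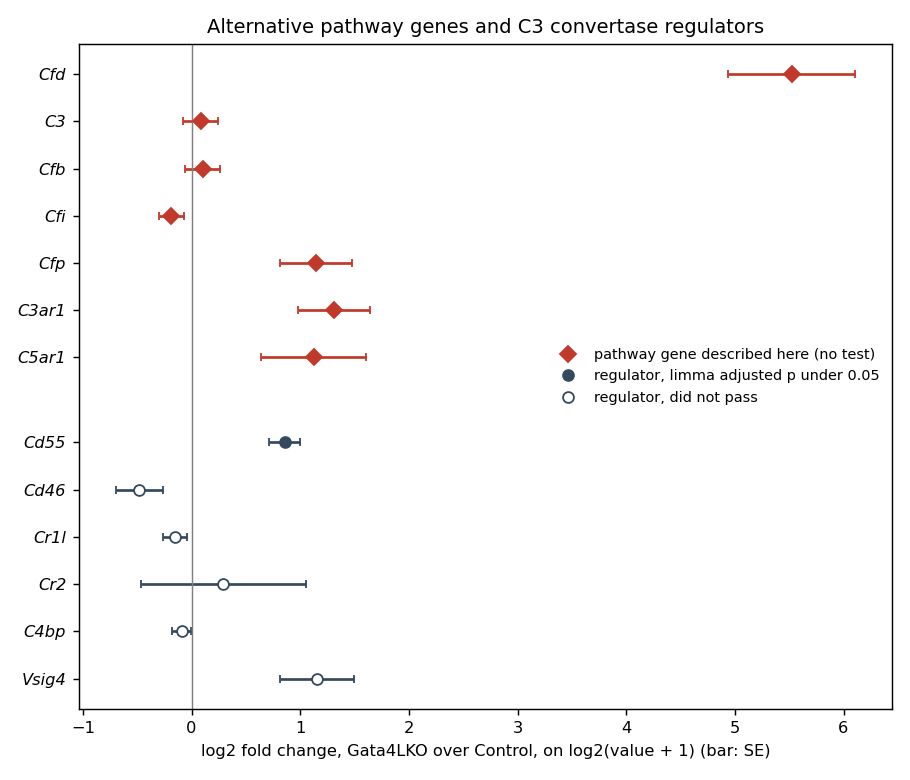
Log2 fold change (libraries labelled Gata4LKO over Control libraries, on log2(value + 1)) with its standard error, for the 7 pathway genes (diamonds, no test) and 6 regulators of the C3 convertase (circles, filled where limma's adjusted p was under 0.05). Cfd stands at 5.52, and Cd55 is the regulator that passed, at 0.86.

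Per length, the order of the 7 genes differed between the groups only in the place of Cfd. Normalised reads per kb of exon were highest for C3, with means of 49461 in the libraries labelled Gata4LKO and 46623 in Control libraries, followed by Cfi with 8365 and 9533. Cfd came next in the libraries labelled Gata4LKO, at 703 to 3478 per kb, above Cfp at 320.3 to 531. In Control libraries Cfp, at 109 to 269 per kb, stood above Cfb and Cfd. There, Cfb at 40.1 to 41.2 and Cfd at 22.3 to 56.3 per kb did not differ beyond their spread. The place of Cfb in this order is uncertain in both groups, because how reads shared with Gm20547 were counted is not known here. C3ar1 and C5ar1 were lowest, with means of 23.8 and 8.27 per kb in the libraries labelled Gata4LKO and 9.72 and 3.93 in Control libraries. Their ranges overlapped in Control libraries, where the lowest C3ar1 value was 5.86 and the highest C5ar1 value 6.87 per kb. Even in Gata4LKO replicate 1, Cfd per kb stayed below Cfi in the same library (3478 against 7557).

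Library by library, the replicate order of Cfd among the mice labelled Gata4LKO differed from that of each other pathway gene. The libraries separated on Cfd by group, and 3 libraries a group are too few to test its relation to the other pathway genes, so the order is given as values. Cfd was highest in Gata4LKO replicate 1 and lowest in replicate 3, whereas Cfp and C3ar1 were highest in replicate 1 and lowest in replicate 2. C3, Cfb and C5ar1 were highest in Gata4LKO replicate 3, the library of that group with the least Cfd. Among Control libraries, replicate 2 had the most Cfd, and it also had the most Cfp, C3ar1, C5ar1, Cfi and Cfb and the largest macrophage marker sum. The order of replicates seen for Cfd in the mice labelled Gata4LKO (1 over 2 over 3) was shared by 18.8% of all tested genes and by none of the other 6 pathway genes. With so few genes and libraries, nothing is read from this difference.

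**Figure D3:**
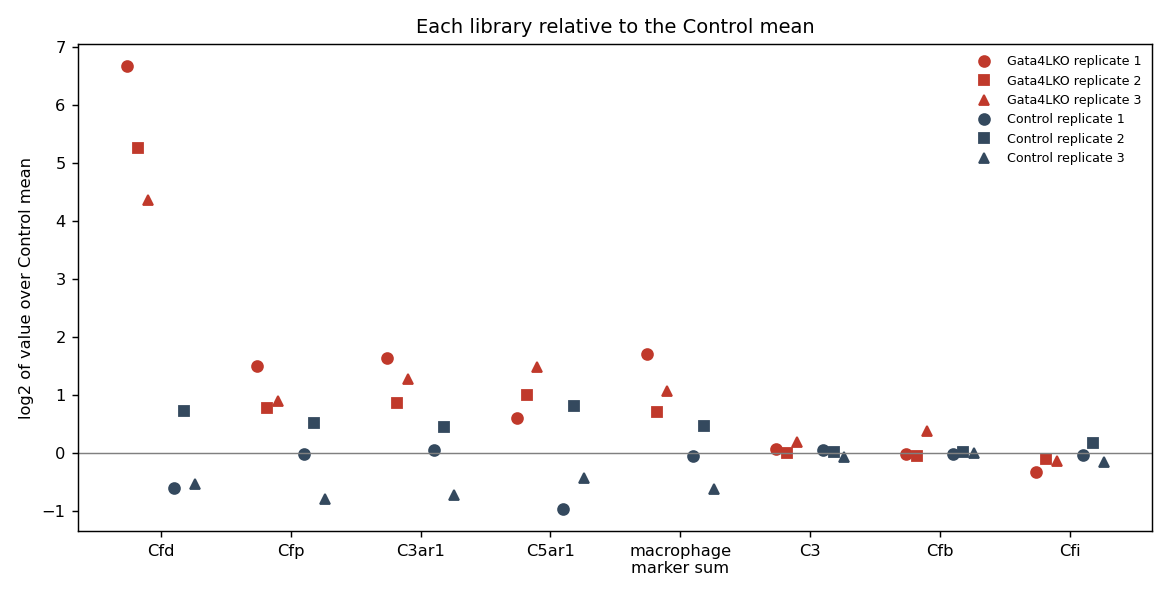
Log2 of each library's value over the Control mean, for the 7 genes and for the sum of 14 macrophage markers. The libraries labelled Gata4LKO (left in each column) reach 4.37 to 6.68 for Cfd and 0.70 to 1.70 for the macrophage sum, while Control libraries (right) stay between -0.97 and 0.81.

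Set against the macrophage markers within each library, Cfp and C3ar1 were level between the groups and Cfd was not. This ratio was chosen after the values were seen. Per 1000 normalised reads of the marker sum, Cfp had 46.6, 56.2 and 47.4 in the libraries labelled Gata4LKO, against 54.9, 55.3 and 47.6 in Control libraries. The means of this Cfp ratio were 50.1 ± 5.32 and 52.6 ± 4.32 (SD, n = 3 each). C3ar1 had 6.56, 7.71 and 7.93 per 1000, against 7.36, 6.76 and 6.36 in Control libraries, with means of 7.40 ± 0.74 and 6.83 ± 0.50. C5ar1 averaged 1.68 ± 0.79 and 1.62 ± 0.65 per 1000. For these 3 genes the libraries of both groups overlapped in the ratio, and the group means differed by less than the larger of the SDs. Cfd had 162, 121 and 50.8 per 1000 in the libraries labelled Gata4LKO, against 3.51, 6.14 and 5.42 in Control libraries. The lowest Cfd ratio of the first group was more than 8 times the highest of the other. The part of macrophage content in the levels of Cfp, C3ar1 and C5ar1 was not tested.

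**Figure D4:**
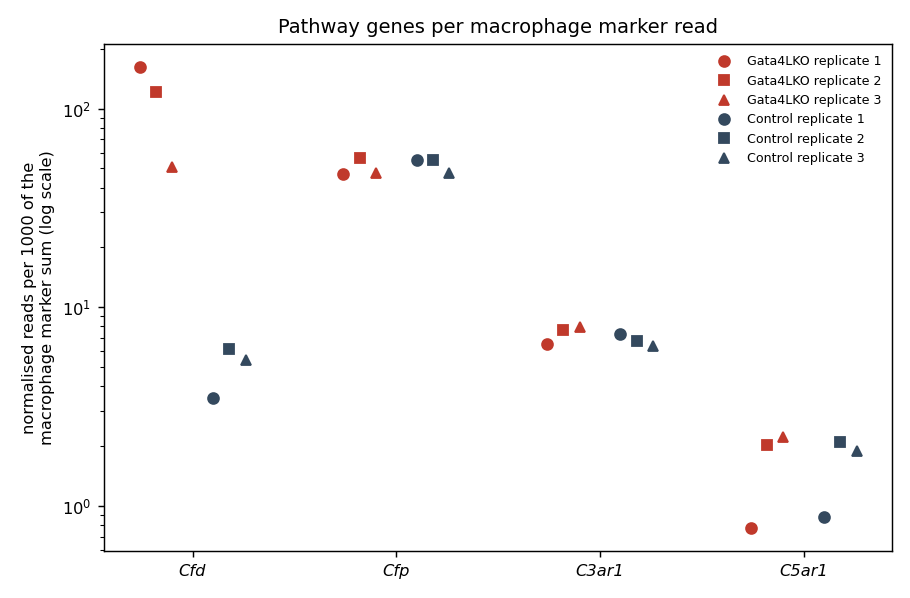
Normalised reads of Cfd, Cfp, C3ar1 and C5ar1 per 1000 normalised reads of the macrophage marker sum in the same library (log axis), libraries labelled Gata4LKO on the left of each column and Control libraries on the right. Cfp and C3ar1 overlap between the groups, and Cfd lies at 50.8 to 162 against 3.51 to 6.14.

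Of the macrophage markers, 13 of 14 had enough reads to be tested, and all 13 had positive log2 fold changes, with a median of 1.21, against -0.01 over all tested genes. By limma 0 of the 13 passed, 11 had an unadjusted p under 0.05, and edgeR and DESeq2 on recovered reads called 0 and 8. Of all tested genes, 22.4% had an unadjusted p under 0.05, edgeR called 1.97% and DESeq2 9.71%. The groups did not overlap for 9 of the 13, all higher in the libraries labelled Gata4LKO, where 15.0% of all tested genes were higher without overlap (28.3% in either direction). Clec4f, the Kupffer cell lectin, had 4038, 2363 and 3072 normalised reads in the libraries labelled Gata4LKO, against 1435, 1933 and 909 in Control libraries (log2 fold change 1.18, SE 0.29, limma adjusted p = 0.0757). Adgre1, which encodes F4/80, and Timd4, a receptor for phosphatidylserine, had log2 fold changes of 1.58 (SE 0.41, limma adjusted p = 0.0858) and 1.48 (SE 0.42, limma adjusted p = 0.101). Mrc1, the mannose receptor, came nearest to the threshold, with 0.86 (SE 0.17, limma adjusted p = 0.0536). Without Control replicate 2, limma called 6 markers of this list.

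Of the genes that restrain the C3 convertase, 1 passed. Of 11 listed regulators 10 were tested, 1 rose and 0 fell by limma, and edgeR and DESeq2 called 1 and 2. Of all tested genes, limma called 2.06% (1.13% higher and 0.932% lower), edgeR 1.97% and DESeq2 9.71%. Without overlap, 2 of the regulators were higher and 1 lower, beside 15.0% and 13.4% of all tested genes. The median log2 fold change of the regulators was -0.11. Cd55, the decay-accelerating factor that takes the convertase apart on cell surfaces, rose to 417, 359 and 341 normalised reads in the libraries labelled Gata4LKO, against 202, 238 and 177 in Control libraries. The log2 fold change was 0.86 (SE 0.14, limma adjusted p = 0.0335), with all 3 libraries labelled Gata4LKO above all Control libraries. An antisense gene, Gm16083, overlaps Cd55 on the other strand, and the counter's strand setting is not known here. The call of Cd55 was lost without Gata4LKO replicate 1, 2 or 3, without Control replicate 1 or 3 (limma adjusted p from 0.0849 to 0.107) and without the variance trend (0.0772), and its limma, edgeR and DESeq2 adjusted p ranged from 6.66e-05 to 0.107 over the alternatives.

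C4bp, the cofactor for C4b, and Cr1l, the rodent membrane regulator Crry, had log2 fold changes of -0.09 (SE 0.09, limma adjusted p = 0.59) and -0.16 (SE 0.11, limma adjusted p = 0.453). Cd46, the membrane cofactor, had 45.0, 67.3 and 67.1 normalised reads, against 86.4, 73.8 and 87.8 in Control libraries. Its groups did not overlap, but its log2 fold change of -0.48 (SE 0.22) missed the threshold (limma adjusted p = 0.242). Cr2, the complement receptor of B cells, had 5.11, 34.1 and 19.8, against 8.23, 30.1 and 7.47 in Control libraries, and its groups overlapped. Vsig4, a Kupffer cell receptor that binds C3b and blocks the convertase, had 1089, 591 and 798, against 351, 570.4 and 231 in Control libraries. Vsig4 is also in the macrophage list and was higher along with it (log2 fold change 1.16, SE 0.34, limma adjusted p = 0.108). Cd55b was not analysed here.

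Other partners of the pathway gave 0 calls among 6 tested genes by limma, 2 at an unadjusted p under 0.05, and 0 by edgeR and 2 by DESeq2. The shares of all tested genes were 2.06%, 22.4%, 1.97% and 9.71%, in that order. Masp1, one of whose products activates factor D, had 5572, 6218 and 6160 normalised reads in the libraries labelled Gata4LKO, against 7466, 8601 and 6894 in Control libraries. All values of Masp1 in the first group lay below all Control values (log2 fold change -0.35, SE 0.10, limma adjusted p = 0.096). Itgb2, the shared chain of the leukocyte receptors for cut C3b, had a log2 fold change of 1.51 (SE 0.36, limma adjusted p = 0.0719), in the same direction as the macrophage markers. Among 11 genes of the terminal pathway and its inhibitors, 0 passed by limma, 0 had an unadjusted p under 0.05, and edgeR and DESeq2 called 0, beside the same shares. Without overlap, 2 of these 11 were lower and 0 higher, beside 13.4% and 15.0% of all tested genes. Hc, which encodes C5, had a log2 fold change of 0.24 (SE 0.12, limma adjusted p = 0.279), and Clu, a fluid-phase inhibitor of the terminal complex, had -0.18 (SE 0.11, limma adjusted p = 0.385). All values of Clu in the libraries labelled Gata4LKO lay below all Control values. In the classical and lectin pathways 1 of 13 genes passed by limma, beside 2.06% of all tested genes. Of the 13, 7 had an unadjusted p under 0.05, beside 22.4%. There edgeR called 1 and DESeq2 5 (4 higher and 1 lower), beside 1.97% and 9.71%. Without overlap, 4 were higher and 4 lower, beside 15.0% and 13.4%. The gene that passed by limma, the mannose-binding lectin Mbl2, fell to 6158, 4877 and 5979 normalised reads, against 9399, 9016 and 8135 in Control libraries (log2 fold change -0.65, limma adjusted p = 0.0321). Its call was lost without each library other than Control replicate 2 and without the variance trend (adjusted p from 1.78e-05 to 0.107 over the alternatives, DESeq2 and edgeR included). The C1q chains, chosen here after their values were seen, had log2 fold changes of 1.27 (C1qa), 1.23 (C1qb) and 1.26 (C1qc) without passing. C1q is made by macrophages.

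Adipoq and Plin1, which define fat cells, were close to 0 in the same libraries, while 5 other genes of the adipocyte list were not. Adipoq, the adipocyte hormone adiponectin, had 0, 2 and 3 reads in the libraries labelled Gata4LKO, against 3, 0 and 0 in Control libraries. Plin1, the adipocyte droplet coat, had 0, 5 and 0 reads, against 0, 3 and 1. Gata4LKO replicate 1, which had 3135 reads of Cfd, thus had 0 of both. Lep and Retn were not analysed here. Of 13 listed adipocyte markers 9 had counts here, and 5 had enough reads to be tested. By limma 0 passed, 3 had an unadjusted p under 0.05, and edgeR and DESeq2 called 0 and 2 (1 higher and 1 lower), beside 22.4%, 1.97% and 9.71% of all tested genes. Of the 5, 2 had positive and 3 negative log2 fold changes, with a median of -0.36 and a lowest value of -1.45. Without overlap, 2 were higher and 1 lower, beside 15.0% and 13.4% of all tested genes. The replicate order of Cfd occurred in 3 of the 5, beside 18.8% of all tested genes. The genes of smallest p were the 2 positive ones. Fabp4 and Lipe, a fatty acid carrier and a lipase that other cells also make, had log2 fold changes of 0.62 (SE 0.14, limma adjusted p = 0.0682) and 0.33 (SE 0.11, limma adjusted p = 0.132). The list summed to 64000, 109424 and 63302 normalised reads, against 104079, 113943 and 84065 in Control libraries, nearly all of it Car3, which liver expresses. The groups overlapped in that sum.

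Genes that PPARG, the nuclear receptor of fat storage, can switch on in fatty liver were described beside Cfd because several of them are also adipocyte genes. Of 11 tested, 4 rose and 0 fell by limma, where 1.13% of all tested genes rose and 0.932% fell. The 11 had a median log2 fold change of 1.01, against -0.01 over all tested genes. Among them 9 log2 fold changes were positive and 2 negative, the lowest at -0.71. Plin4, a droplet coat protein, rose to 965, 757 and 964 normalised reads in the libraries labelled Gata4LKO, against 360.1, 214 and 280.2 in Control libraries (log2 fold change 1.67, limma adjusted p = 0.0139). Lpl, Plin2 and Fitm2 rose by 1.28, 1.01 and 0.85 on the log2 scale (limma adjusted p = 0.027, 0.0385 and 0.0287). They encode a lipase, a droplet coat and a droplet-forming protein. The count of 4 was 0 without Gata4LKO replicate 3, 0 without Control replicate 3, 2 without Control replicate 1, and 2 without Gata4LKO replicate 1, of which 1 was lower. Pparg itself, chosen here after its values were seen, had 513, 347 and 280 normalised reads, against 359, 226 and 167 in Control libraries, in the same order of replicates as Cfd in the first group. Its groups overlapped. Cd36, a fatty acid receptor chosen likewise, had 2949, 1365 and 1299, against 606, 732 and 343. Cidec, a droplet fusion protein also chosen after its values were seen, had 320.2, 65.2 and 96.4, against 47.3, 30.1 and 62.6. In the 11 genes the replicate order of Cfd occurred 3 times, where 18.8% of all tested genes had it.

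Neutrophils carry properdin and C5ar1, and the neutrophil protease genes Elane and Prtn3 lie beside Cfd. S100a8, an abundant neutrophil gene, had 4, 5 and 9 reads in the libraries labelled Gata4LKO, against 7, 4 and 2 in Control libraries. Of the 12 listed neutrophil markers, 10 had counts here, and Ly6g was not among them. Those 10 summed to 163 to 174 normalised reads in the libraries labelled Gata4LKO, against 40.2 to 111 in Control libraries. Most of that sum came from Csf3r and Prtn3, with 94.1 and 54.2 of the 174 in Gata4LKO replicate 1. By limma 0 of the 3 tested passed, 2 had an unadjusted p under 0.05, and edgeR and DESeq2 called 0 and 2. The shares of all tested genes were 2.06%, 22.4%, 1.97% and 9.71%, in that order. Csf3r, the receptor for granulocyte colony-stimulating factor, had a log2 fold change of 1.18 (SE 0.34, limma adjusted p = 0.105).

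Around Cfd, the annotation places 23 other genes within 100 kb, of which 12 had enough reads to be tested. By limma 0 of the 12 passed, 3 had an unadjusted p under 0.05, and edgeR and DESeq2 called 0 and 1, beside 22.4%, 1.97% and 9.71% of all tested genes. The groups did not overlap for 6 of the 12, 5 higher (Palm, Prtn3, Arid3a, Grin3b and Cnn2) and 1 lower (Tmem259), where 15.0% and 13.4% of all tested genes were higher and lower without overlap. Prtn3, which encodes proteinase 3 and ends 7679 bases before the start of Cfd, had 54.2, 55.2 and 30.2 normalised reads in the libraries labelled Gata4LKO, against 6.17, 13.5 and 1.87 in Control libraries. Its groups did not overlap, and its log2 fold change of 2.78 (SE 0.60) missed the threshold (limma adjusted p = 0.0604; 0.000522 to 0.151 over the alternatives). Prtn3 also overlaps Plppr3 on the other strand, but only from 79874476 to 79874634, and how shared reads were counted is not known here. Plppr3 had 4.09, 4.02 and 4.72 normalised reads, against 3.09, 8.31 and 3.74 in Control libraries. Elane, which lies between Prtn3 and Cfd and was chosen after its values were seen, had 8, 15 and 5 reads, against 7, 8 and 4 in Control libraries, and overlapped. On the other side, Med16, a Mediator subunit 2053 bases past the end of Cfd, had 938, 873 and 852, against 839, 897 and 885 (log2 fold change 0.02, SE 0.08). R3hdm4 and Kiss1r, the kisspeptin receptor gene, had log2 fold changes of -0.02 (SE 0.06) and 0.47 (SE 0.36). Farther away, Grin3b and Cnn2, named after their values were seen, had 0.99 (SE 0.33) and 0.64 (SE 0.22) without passing (limma adjusted p = 0.14 and 0.153).

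**Figure D5:**
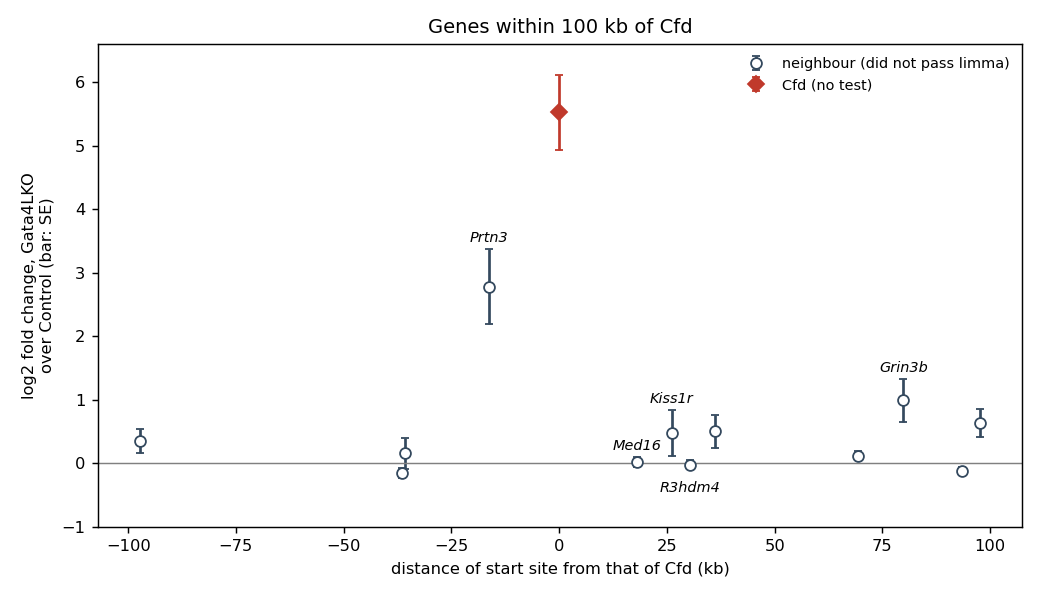
Log2 fold change (libraries labelled Gata4LKO over Control libraries) with its standard error, against the distance of each gene's start site from that of Cfd in kb, for Cfd (diamond, no test) and the 12 tested genes within 100 kb (open circles, none past limma's threshold). Prtn3 at 2.78 is the highest neighbour, and Med16 and R3hdm4 lie at 0.02 and -0.02.

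The acute phase genes, with which hepatic C3 and Cfb are often grouped, gave 0 calls of 19 by limma, 7 at an unadjusted p under 0.05, and 0 by edgeR and 5 by DESeq2, beside 22.4%, 1.97% and 9.71% of all tested genes. Of the 19, 8 had positive and 11 negative log2 fold changes, with a median of -0.07 and a lowest value of -1.94. The 5 that DESeq2 called were all lower. Without overlap, 6 were lower and 1 higher, beside 13.4% and 15.0% of all tested genes. The genes of smallest p were Itih4 and Orm1. Itih4 and Orm1, secreted plasma proteins, had log2 fold changes of -0.54 (SE 0.15, limma adjusted p = 0.0923) and -0.37 (SE 0.10, limma adjusted p = 0.0993), each lower in all 3 libraries labelled Gata4LKO than in any Control library. Of 12 hepatocyte markers, Serpina1a, an alpha-1-antitrypsin gene with close copies, fell to 14626, 15469 and 14028 normalised reads, against 19341, 20274 and 20019 in Control libraries (log2 fold change -0.44, limma adjusted p = 0.0369). That call was lost without each library other than Control replicate 2 and without the variance trend (adjusted p from 6.44e-06 to 0.149 over the alternatives, DESeq2 and edgeR included).

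The genes whose pattern was most like that of Cfd over the 6 libraries were Tnfrsf10b, a death receptor, Pde6d, the kinase Fyn, the RNA-binding Caprin1, Glg1 and the sialyltransferase St3gal6. Their Pearson correlations of log2(value + 1) with Cfd were 0.989 to 0.991, the highest among 11462 genes with a mean of at least 50. The split between the groups sets most of such a value, since both groups share it. None of these 6 passed by limma (adjusted p from 0.0519 to 0.112), and their log2 fold changes lay between 0.26 and 0.82, far below that of Cfd. With the group means taken off, Smc4, Atp6v1b2 and Srp14, which encode a condensin subunit, a proton pump subunit and a signal recognition particle protein, had the highest correlations (0.997 to 0.998). Both sets of correlations rest on 3 libraries a group, serve only to rank genes by likeness and were not tested.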

How the data were processed

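RNA from 6 frozen livers was captured as mRNA and made into stranded libraries, per the labels' protocols. FastQC, STAR 2.6.0c, DESeq2 and mm10 are named in the submitters' processing notes, while nothing in the sources used here gives the counter, its strand setting or its annotation. The deposited signal is a count per gene divided by 1 factor per library: 100% of values lay within 0.1 of a whole number of reads, which recovered the reads. The authors' deposited table of their comparison gives log2 fold changes with their standard errors, a score (the test statistic), a ratio (fold) and p-values. Libraries were grouped by genotype label and numbered in accession order. No pair of the 15 agreed within counting noise (chi-square per degree of freedom 28.2 or more).

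The main test was limma 3.58.1 (R 4.3.3) with an intensity trend on log2(value + 1), over 14385 genes with a mean of at least 10, two-sided, Benjamini-Hochberg adjusted over all genes at 0.05. Fold changes on this scale understate changes of low genes. Alternatives were other pseudocounts, filters, scalings and variance settings, edgeR 4.0.16 and DESeq2 1.42.0 on recovered reads, and leaving out each library. The test was tried on simulated counts. The genes, lists and tests were chosen with earlier results of these data known. Named genes were the 7 pathway genes, all convertase regulators, up to 4 passing genes per other list (or the 2 of smallest p), fixed cell markers, the 4 nearest tested neighbours of Cfd and the genes most like it. Coordinates are from GENCODE M21, in which 24480 identifiers were found. Some regulators that this rule would name are counted but not reported singly here. Protein sequences were not used here. Standard deviations describe the spread between these mice. The standard errors and p-values of limma set the group difference against that spread, with variances adjusted by the trend over all genes.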

Additional observations from a re-analysis of the deposited data

How the results depend on the processing

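No paired analysis was possible because the labels give each mouse its own number and pair none. The log2 fold change of Cfd kept its sign and moved by less than the spread between replicates under all 18 alternatives, from 4.90 to 6.05. Of 7 pathway genes, limma's 1 call became 0 without the variance trend, 2 with library quality weights and 3 with DESeq2, and was 1 to 3 when 1 library was left out. Since this contrast was used to choose these genes, the counts of their calls are descriptions and not support. The 296 genes called over all genes became 458 with equal library sums (71.6% of them higher, against 54.7%), 25 without the trend, 841 with quality weights and 1370 with DESeq2, and lay between 27 (without Gata4LKO replicate 3) and 792 (without Control replicate 2) when 1 library was left out. Without the trend the calls were 0 for convertase regulators, classical and lectin genes, PPARG targets and hepatocyte markers. With quality weights there was 1 call each among other partners, adipocyte markers, neutrophil markers and genes near Cfd, 4 among macrophage markers and 5 among classical and lectin genes. DESeq2 gave 2 calls among convertase regulators, 2 among other partners, 2 among adipocyte markers, 2 among neutrophil markers, 5 each among classical and lectin, acute phase and hepatocyte genes, 7 among PPARG targets, 8 among macrophage markers and 1 near Cfd. One macrophage marker passed with no filter and 1 with equal library sums. Prtn3 gave the 1 neutrophil and the 1 neighbour call with a pseudocount of 5, with equal library sums and with quantile normalisation. Robust variance gave 2 hepatocyte markers. Leaving out 1 library gave 0 to 2 convertase regulators, 0 to 6 classical and lectin genes, 0 to 5 PPARG targets, 0 to 6 macrophage markers, 0 to 2 neutrophil markers, 0 to 1 hepatocyte markers and 0 to 1 neighbours. The terminal list gave 0 calls throughout. The cause of these shifts was not tested. Of the 52 named genes outside the pathway's 7, over their alternatives (932 values), 831 stayed on their side of the threshold, 36 lost and 65 gained a call, and none reversed past the threshold. C5ar1 rested on 5 to 30 reads a library.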
